A study of Mus musculus with 16 samples.

Results

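The binding of Myc was compared between mouse splenic B cells given lipopolysaccharide (LPS) alone and B cells given LPS together with 10058-F4. The comparison rests on 6 of the 16 chromatin immunoprecipitation sequencing (ChIP-seq) libraries of the series, chosen by their titles. Without 10058-F4 there were 2 Myc libraries and 2 libraries made with a non-specific IgG, each pair being the first library and the one marked as a repeat (replicates 1 and 2). With 10058-F4 there was 1 Myc library, which was read against the IgG library numbered 2 in its title. All 6 came from splenic B cells kept for 4 h with 25 µg/ml LPS, and the cells with 10058-F4 differed from the others by that compound. Its dose, its solvent and the genotype and age of the mice are not given in the sources used here, and neither is a link from libraries to animals, so the spread between replicates may be technical. Per the design text the antibody of the Myc libraries was raised to EGFP, a fluorescent protein tag, so the reads report a tagged form of Myc.

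Myc is a transcription factor that binds DNA as a pair with its partner Max, mostly at promoters and enhancers that are already open and that carry RNA polymerase II (Pol2). Resting B cells hold little Myc, and LPS, a bacterial cell wall component sensed by B cells, brings it up within hours. The small molecule 10058-F4 binds Myc and disturbs its pairing with Max. Because an unpaired Myc protein binds DNA poorly, the compound is used to lower the amount of Myc on chromatin.

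The genome (mm8, chromosomes 1 to 19) was divided into 4924874 bins of 500 bp, and read counts were given per 1000000 reads of the library on these chromosomes (RPM). The Myc libraries held 2141694 reads in replicate 1, 3099793 in replicate 2 and 3311644 with 10058-F4. Their IgG libraries held 3367741, 5119994 and 5089651 reads. Reads were 24 to 30 bases long in both libraries of replicate 1 and 45 bases in the other 4. The names of the deposited files number the libraries of replicate 2 and of 10058-F4 consecutively, and these libraries share their read length. The labels do not say whether they were made or sequenced together. With 1 library against 2, an exact permutation test over libraries cannot go below p = 0.333 (two-sided). Differences are therefore given beside the gap between the replicates, and intervals cover counting error at 95% only. A lower amount of Myc on chromatin and a less efficient precipitation in the single 10058-F4 library cannot be told apart.

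With 10058-F4, Myc reads still formed a peak at Pol2 sites, but the peak was lower than in either library without it. Sites were taken from the 2000 bins with the most reads in the Pol2 library of LPS-treated B cells, a library that is none of the 6. Bins among the 0.1% with the most IgG reads were left out and adjacent bins were joined, which gave 1335 sites centred on the local Pol2 maximum. At the centre, the mean level was 0.874 RPM per 100 bp in replicate 1, 0.575 in replicate 2 and 0.361 with 10058-F4. The IgG libraries had 0.105, 0.156 and 0.189 there. The height of the Myc peak was thus in the same order at the centre whether or not IgG was considered, with the 10058-F4 library between the replicates and IgG.

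**Figure D1:**
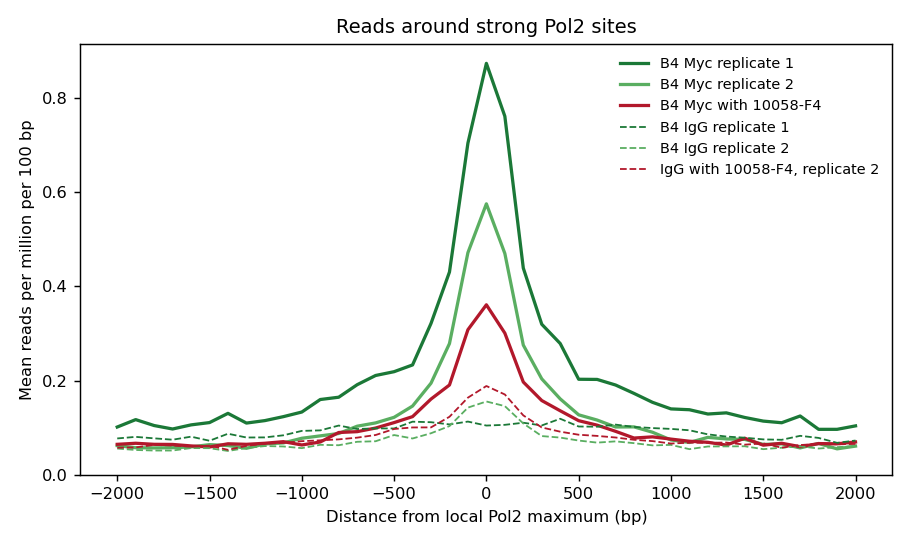
Mean RPM per 100 bp (y axis) against the distance in bp from the local Pol2 maximum (x axis), over 1335 strong Pol2 sites, for the 3 Myc libraries (solid lines) and their IgG libraries (dashed lines). At the centre the 10058-F4 Myc library reached 0.361, below 0.575 and 0.874 in the replicates without it, and its IgG library reached 0.189.

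A measure taken within each library avoids the choice of an IgG control. The density of reads in the 500 bp around the Pol2 maximum was divided by the density in the flanks of the same sites, the outermost 500 bp on each side of a window that reached about 2 kb. This centre-over-flank ratio was 6.06 (5.82 to 6.32) in Myc replicate 1 and 6.92 (6.62 to 7.24) in replicate 2. In the 10058-F4 library it was 4.17 (3.99 to 4.37). The 5 IgG libraries of LPS-treated B cells had ratios from 1.41 to 2.93, the highest in the one titled wt, a word the labels do not explain. The 10058-F4 library thus lay 1.89 below the nearer replicate, while the replicates were 0.861 apart (6.49 ± 0.609, SD, n = 2). It lay 1.24 above the highest IgG library. The Pol2 libraries had ratios of 10.3 without and 10.7 with 10058-F4 at the same sites. These sites were chosen and centred on the first of these Pol2 libraries, which can raise its ratio, so the libraries are not compared evenly.

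The Myc ratios lay further apart at the sites with the most T cell Myc than at strong Pol2 sites, and they came together further down that ranking. T cells given concanavalin A, a lectin that activates them, for 4 h supplied a Myc ranking that shares no library with the B cell comparison. Bins were ranked by T cell Myc minus T cell IgG (RPM), and sites were centred on the T cell Myc maximum. At the 379 sites from ranks 1 to 500 the ratio was 12.97 (11.96 to 14.1) in B cell Myc replicate 1 and 12.2 (11.2 to 13.4) in replicate 2. With 10058-F4 it was 5.43 (4.98 to 5.93), against 2.002 to 3.10 in the 5 IgG libraries. The replicates were 0.764 apart and the 10058-F4 library lay 6.77 below the nearer of them. At these sites, chosen without Pol2, the Pol2 libraries had ratios of 15.9 (15.1 to 16.8) without and 20.4 (19.7 to 21.2) with 10058-F4. At ranks above 500 up to 2000 the Myc ratios were 6.17 and 5.76 without and 3.52 with 10058-F4. At ranks above 2000 up to 5000 they were 3.42 and 3.03 against 2.33. By Pol2 rank the sites were centred on the Pol2 maximum instead. There the class above 500 up to 2000 had Myc ratios of 5.67 and 6.40 against 3.99, a narrower gap than by T cell Myc. The class above 2000 up to 5000 had 5.51 and 6.09 against 4.02, a wider gap than by T cell Myc.

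Down the Pol2 ranking the libraries came together. At ranks above 10000 up to 20000 the centre-over-flank ratio was 3.37 and 3.62 without 10058-F4 and 2.75 with it. At ranks above 20000 up to 50000 it was 1.95 and 1.97 against 1.79, and the IgG library marked wt, at 1.804, was no longer below the 10058-F4 Myc library. The other 4 IgG libraries lay between 1.39 and 1.62 there, so at weak Pol2 sites the margin of the 10058-F4 Myc library depended on the IgG library it was set against.

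**Figure D2:**
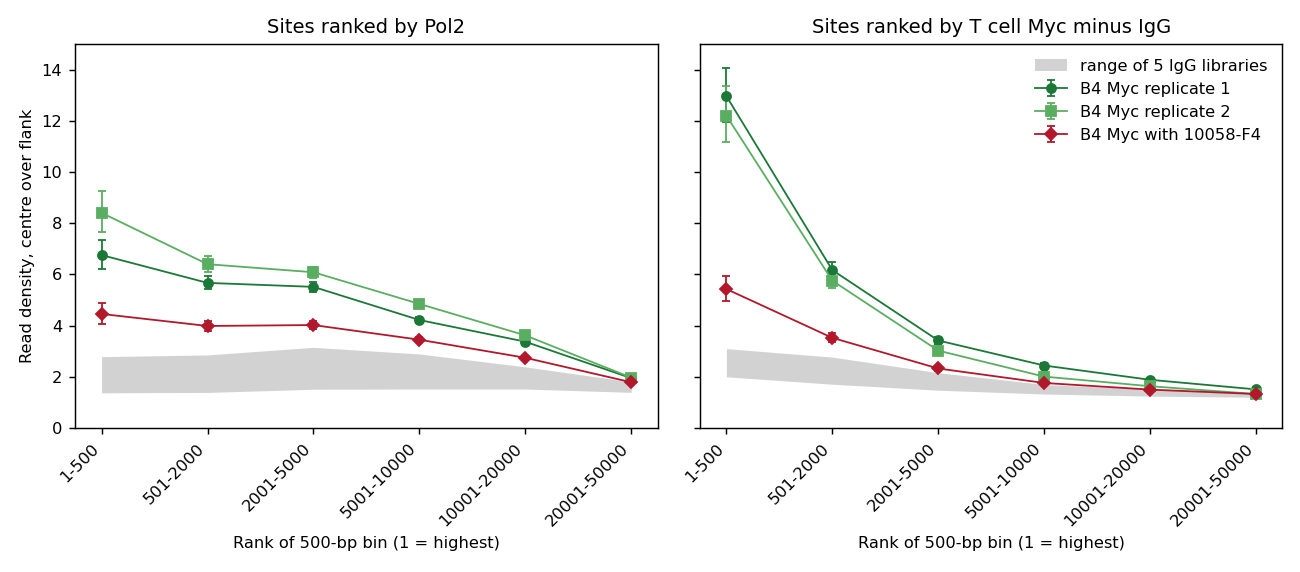
Read density at the site centre over that in the flanks (y axis) by rank class of the 500-bp bins (x axis), ranked by Pol2 on the left and by T cell Myc minus IgG on the right. Points are single Myc libraries with 95% counting intervals and the grey band is the range of 5 IgG libraries. The 10058-F4 library lies below both replicates at ranks 1 to 500 in both panels (4.46 against 6.76 and 8.40, and 5.43 against 12.97 and 12.2).

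Myc over IgG, the fold of summed reads scaled to library size, gave the same order at strong Pol2 bins with the IgG libraries named above. At Pol2 ranks above 500 up to 2000 Myc replicate 1 had 9359 reads over 3418 IgG reads, a fold of 4.31 (4.14 to 4.48). Replicate 2 had 8828 over 5683, a fold of 2.57 (2.48 to 2.65). The 10058-F4 library had 6712 over 6602, a fold of 1.56 (1.51 to 1.62). On the log2 scale it was 0.72 below replicate 2 (0.65 to 0.78) and 1.46 below replicate 1. The replicates themselves were 0.75 apart, so on this measure the gap to the nearer replicate was no larger than the gap between replicates.

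The fold with 10058-F4 varied less with Pol2 than that of the replicates. It was 1.56 at ranks above 500 up to 2000, 1.51 at ranks above 2000 up to 5000, 1.41 at ranks above 5000 up to 10000 and 1.28 at ranks above 10000 up to 20000. Over the same classes replicate 1 went from 4.31 to 2.09 and replicate 2 from 2.57 to 1.61. In weaker Pol2 bins the order changed. At ranks above 20000 up to 50000 the fold with 10058-F4 was 1.17 (1.16 to 1.18), within counting error of 1.18 (1.16 to 1.19) in replicate 2, and at ranks above 50000 up to 100000 it was 1.14 against 1.02 in replicate 2 and 1.13 in replicate 1. In all bins beyond rank 100000 the 3 folds lay between 0.969 and 0.989. The fold with 10058-F4 was thus below both replicates in each class down to rank 20000 and not in the classes after it by more than counting error.

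Ranks 1 to 500 held lower folds than the next class in all 3 pairs, at 2.71 and 1.76 without and 1.19 with 10058-F4. Of these 500 bins, 162 were among the 0.1% of bins with the most IgG reads, and single bins held up to 606 IgG reads. Without such bins the folds were 6.64 (6.07 to 7.26), 3.48 (3.24 to 3.75) and 1.98 (1.84 to 2.14). Leaving out bins for their IgG reads raises every fold, but the order of the 3 libraries was the same.

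Ranking the bins by Myc itself gave similar values, each library being read only where another had ranked the bins. At the 500 bins highest in Myc replicate 1 minus its IgG, replicate 2 had a fold of 2.72 (2.61 to 2.83) and the 10058-F4 library 1.496 (1.44 to 1.56). At the 500 bins highest in replicate 2, replicate 1 had 3.02 (2.90 to 3.15) and the 10058-F4 library 1.44 (1.40 to 1.49). Both of these rankings were made on libraries without 10058-F4, so they favour bins that are high without it. At the 500 bins highest in T cell Myc the folds were 5.01 (4.76 to 5.29), 2.98 (2.84 to 3.12) and 1.54 (1.47 to 1.61). There the log2 fold with 10058-F4 was 0.95 below replicate 2, more than the 0.75 between the replicates. At T cell ranks above 5000 up to 10000 the folds had come down to 1.71, 1.48 and 1.21.

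**Figure D3:**
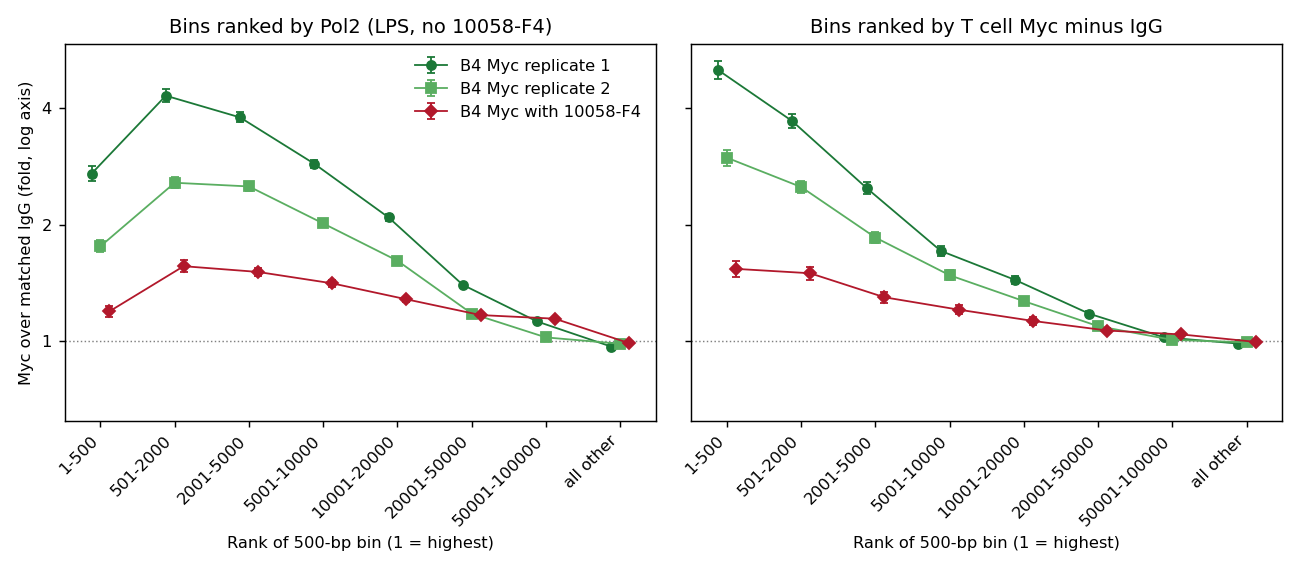
Fold of Myc over its IgG library (y axis, log scale) by rank class of the 500-bp bins (x axis), ranked by Pol2 on the left and by T cell Myc minus IgG on the right, with 95% counting intervals. At Pol2 ranks above 500 up to 2000 the folds are 4.31 and 2.57 without and 1.56 with 10058-F4, and beyond rank 100000 all 3 are between 0.969 and 0.989.

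Among bins of similar Pol2, the Myc fold still varied with T cell Myc. Pol2 ranks above 500 up to 10000 were divided into 4 groups of 2375 bins by T cell Myc, between which mean Pol2 moved only from 12.1 to 13.2 RPM per bin. From the lowest to the highest group the fold in replicate 1 was 2.49 (2.41 to 2.58) and then 4.89 (4.74 to 5.05). In replicate 2 it was 1.84 (1.79 to 1.90) at the lowest and 3.01 (2.93 to 3.10) at the highest. Both replicates were higher in each group than in the one before. With 10058-F4 the 4 folds were 1.40 (1.36 to 1.44), 1.36 (1.32 to 1.40), 1.45 (1.40 to 1.49) and 1.67 (1.62 to 1.72), so it was not higher at every step. The difference between the libraries in this pattern was not tested. Bins among the 0.1% with the most IgG reads were kept in these groups, and IgG levels were not compared between them.

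These folds depended on which IgG library stood below them. At Pol2 ranks above 500 up to 2000 the IgG libraries without 10058-F4 had 0.677 RPM per bin in replicate 1, 0.740 in replicate 2 and 1.39 in the library marked wt. With 10058-F4 they had 0.941 in replicate 1 and 0.865 in replicate 2. Beyond rank 100000 all 5 lay between 0.192 and 0.199, so every IgG library was itself higher at strong Pol2 bins. Without any IgG, Myc stood at 2.91 and 1.90 RPM per bin without 10058-F4 and at 1.35 with it. Read against the IgG library marked wt, Myc replicate 2 had a fold of 1.36, below the 1.56 of the 10058-F4 library over its own IgG, so the direction between these libraries turned. With the same IgG library under all 3, the order is that of the Myc levels themselves, and the 10058-F4 library was lowest in this class. It had, for example, 1.997 against 4.31 and 2.81 over IgG replicate 1, and 0.969 against 2.09 and 1.36 over the one marked wt. At ranks 1 to 500 the Myc levels were 4.62 and 3.91 RPM per bin without and 3.84 with 10058-F4, over 1.71, 2.22 and 3.22 in their IgG libraries. At ranks above 10000 up to 20000 the Myc levels were 1.21 and 0.856 against 0.821. At ranks above 20000 up to 50000 the 10058-F4 library, at 0.552, lay between replicate 1 (0.690) and replicate 2 (0.468).

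**Figure D4:**
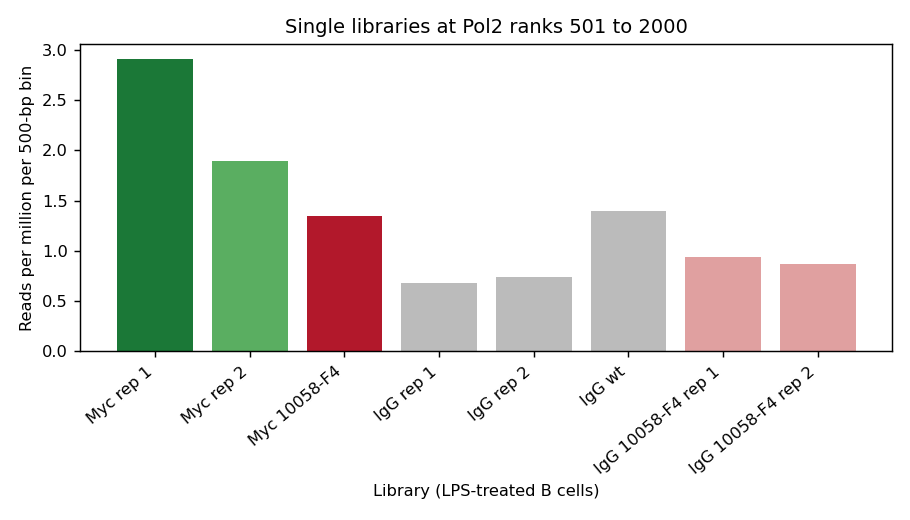
RPM per 500-bp bin (y axis) at Pol2 ranks above 500 up to 2000 in each of 8 libraries of LPS-treated B cells (x axis), 1 bar per library with no error bar. The Myc bars stand at 2.91, 1.90 and 1.35, and the IgG bars range from 0.677 to 1.39, the highest being the library marked wt.

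The lower fold came from many bins and from every chromosome. Over the 2000 strongest Pol2 bins, log2 enrichment per bin with 0.5 RPM added to both sides had a median of 1.52 in replicate 1, 0.93 in replicate 2 and 0.37 with 10058-F4. The 10058-F4 library was below replicate 2 in 68.0% of these bins and below replicate 1 in 77.6%. It was below both in 58.8% and above both in 13.2%. The median difference per bin was -0.49 (-0.56 to -0.42) from replicate 2 and -1.08 (-1.17 to -0.97) from replicate 1, against 0.56 between the replicates. Summed by chromosome over these bins, the log2 fold with 10058-F4 was below that of replicate 2 on all 19 chromosomes, by 0.18 on chromosome 2 and by 1.05 on chromosome 5 at the extremes, and below replicate 1 on all 19. Replicate 2 was in turn below replicate 1 on all 19, and replicate 1 was the higher in 65.2% of the bins. A spread over many bins and all chromosomes thus also held between the replicates, and does not set the 10058-F4 library apart.

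At equal depth, few single bins of the 10058-F4 library passed a test against its IgG, although 69.8% of the 2000 strongest Pol2 bins had more Myc than IgG in that library at full depth. All 6 libraries were thinned at random to 2141694 reads, and bins with at least 8 reads in a pair were tested with a one-sided exact binomial test at an adjusted p of 0.05. This compares single libraries and not conditions. Each pair had its own set of tested bins, and a bin could enter it through its Myc reads alone. Called bins had a median of 0 IgG reads in both replicates, with 11 and 10 Myc reads. The percentages that follow thus rest on unlike sets of bins. In Myc replicate 1, 1642 of 9053 bins were higher than IgG (18.1%), and 13 were lower (0.144%). In replicate 2, 329 of 2512 bins were higher (13.1%) and 0 lower. With 10058-F4, 2 of 3287 bins were higher (0.0608%) and 1 lower (0.0304%). The 2 bins called with 10058-F4 were bins of many IgG reads, with medians of 95 Myc and 42 IgG reads, and both were also called in replicate 2. Bins higher in Myc outnumbered bins higher in IgG widely in both replicates and hardly at all with 10058-F4. Of the higher bins, 65.1% in replicate 1 and 82.7% in replicate 2 were among the 10000 strongest Pol2 bins. The share of all tested bins lying there was not computed, so these percentages do not show whether called bins differed from tested ones. Over the other IgG library with 10058-F4 the counts were 48 higher and 18 lower.

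Bins called in one library were then read in the others. Both sets given here were chosen as high in a library without 10058-F4, which favours the other replicate over the 10058-F4 library. The set called with 10058-F4 held only 2 bins, too few to read the other way, so the folds are a description. At the 1642 bins of replicate 1, replicate 2 had a fold of 3.05 (2.91 to 3.20) and the 10058-F4 library 1.71 (1.63 to 1.79). At the 329 bins of replicate 2, replicate 1 had 4.49 (4.17 to 4.85) and the 10058-F4 library 1.97 (1.81 to 2.14). The fold with 10058-F4 was therefore above 1 at these sets of bins although 0 of the 1642 and 2 of the 329 were called in that library. Over all its tested bins 0.0608% were called. The replicates had 135 called bins in common, 8.22% of the 1642 and 41.0% of the 329. Most bins called in one replicate were thus not called in the other either.

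Single bins at the top of the T cell Myc ranking are given as examples, and they do not give the size of the difference in general. The 6 bins with the highest T cell Myc among the 2000 strongest Pol2 bins were chosen without the B cell Myc libraries, and genes are not assigned to them because no mm8 annotation was used here. At chr5:142620001-142620500, Myc replicates 1 and 2 had 47 and 47 reads (21.9 and 15.2 RPM) and the 10058-F4 library had 11 (3.32 RPM), over 1, 3 and 5 IgG reads. At chr4:154836001-154836500 there were 45 and 27 reads without and 12 with 10058-F4, which is 21.01, 8.71 and 3.62 RPM, over 0, 2 and 3 IgG reads. In both bins the 10058-F4 library was below each replicate and above its own IgG.

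At chr4:133182501-133183000 the reads were 39 and 31 without and 15 with 10058-F4. At chr11:6428501-6429000 they were 39 and 34 against 11, and at chr6:86492001-86492500 they were 37 and 32 against 13. At the sixth, chr11:101132001-101132500, they were 32 and 19 against 12 (14.9, 6.13 and 3.62 RPM). The 10058-F4 library held 0 to 5 IgG reads in these 6 bins, and its Myc level was the lowest of the 3 Myc libraries in 6 of 6. Set against IgG in the limma fit given below, the log2 difference ranged from -3.27 at chr5:142620001-142620500 to 0.45 at chr6:86492001-86492500.

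**Figure D5:**
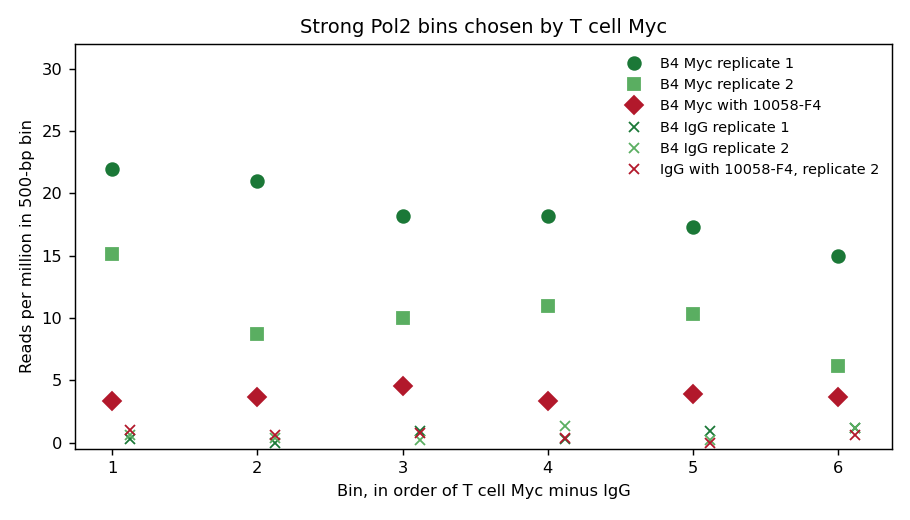
RPM (y axis) in the 6 strong Pol2 bins with the highest T cell Myc (x axis, in that order), for the 3 Myc libraries (filled symbols) and their IgG libraries (crosses). The 10058-F4 Myc library lies between 3.32 and 4.53 in every bin, below both replicates and above its IgG.

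The 6 bins with the highest B cell Myc were chosen from the replicates, so a lower level elsewhere is partly set by the choice and is given as a description. At chr11:102005501-102006000 Myc replicates had 62 and 23 reads and the 10058-F4 library 9, over 3, 0 and 5 IgG reads. At chr1:88189501-88190000 there were 43 and 33 reads against 7, and at chr7:121858001-121858500 there were 25 and 38 against 11. The other 3 lay at chr11:59862501-59863000, chr9:20628501-20629000 and chr2:143962001-143962500, with 51 and 28 against 12, 49 and 30 against 16, and 36 and 23 against 14.

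The 5 bins with the highest Myc minus IgG in the 10058-F4 library, chosen on that library, showed how far it reached. It had 16 to 18 reads in them over 3 to 5 IgG reads. At chr17:6374501-6375000, a bin with 3 Pol2 reads, it had 18 Myc reads against 0 and 3 in the replicates, with 7 and 4 IgG reads there. At chr8:86498001-86498500 it had 18 against 7 and 11, at chr13:8995001-8995500 it had 16 against 16 and 14, and at chr9:100452501-100453000 it had 17 against 8 and 15. At chr15:76196001-76196500 it had 16 against 8 and 8. Scaled to library size it was above both replicates in 4 of the 5. All but the first had 33 to 82 Pol2 reads, at Pol2 ranks from 90 to 3135.

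No bin passed a test of the difference that took the libraries as unpaired. limma with voom weights set Myc minus IgG with 10058-F4 against Myc minus IgG without it in 5740 bins with a mean of at least 4 reads, with Benjamini-Hochberg adjustment over all of them. It called 0 bins higher and 0 lower (0.0% each), the smallest adjusted p being 0.999. At an unadjusted p below 0.05 there were 43 lower and 3 higher bins, and limma-trend called 0 with 183 lower and 5 higher. These unadjusted counts rested on single libraries: lower and higher bins were 4 and 0 without IgG replicate 1, 0 and 3 without IgG replicate 2, and 327 and 16 without Myc replicate 2. With a mean of at least 2 reads they were 2858 and 2654 of 168296 bins. The median log2 difference was -0.72 over the 5740 bins, -0.06 with at least 2 reads, -0.08 with at least 1, -0.11 with at least 8 and -0.17 in 1-kb bins. With libraries paired by replicate number as a block, 15 bins were lower (0.261%) and 0 higher, although the labels do not say that these numbers mark a shared source. The lone 10058-F4 libraries are assumed in this fit to vary like the replicated ones.

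The bins with the lowest and highest statistics were chosen on the difference itself, so its direction in them is set by the choice and is given as a description. The 5 bins with the lowest statistics had less Myc with 10058-F4 than either replicate. In 3 of them Myc with 10058-F4 was below its IgG after scaling to library size. At chr15:102453501-102454000 the replicates had 45 and 12 Myc reads over 3 and 3 IgG reads, and the 10058-F4 library had 6 over 9 (log2 difference -3.51, SE 1.29, adjusted p = 0.999 by limma). At chr9:20638501-20639000 there were 30 and 17 over 0 and 2, and 4 over 9. At chr15:81955001-81955500, chr15:82046001-82046500 and chr10:117195501-117196000 the 10058-F4 library had 4 over 10, 4 over 9 and 10 over 14. The highest statistics lay at bins with 0 to 13 Myc reads and 4 to 16 IgG reads in the replicates, chr12:67977501-67978000, chr17:6400001-6400500, chr17:23948001-23948500, chr14:119612501-119613000 and chr7:121809501-121810000. There the 10058-F4 library had 8 to 13 reads over 3 to 4 IgG reads, and none of these bins was among the 5000 strongest of Pol2.

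Pol2 itself was measured in 1 library on each side, with no replicate check. At Pol2 ranks above 500 up to 2000 it stood at 18.98 RPM per bin without and 23.3 with 10058-F4, although the ranking was made on the first of these libraries. It was 35.2 without and 34.5 with 10058-F4 at ranks 1 to 500. At ranks above 50000 up to 100000 it was 1.79 without and 1.11 with 10058-F4. By the ranking, each bin of that class held 3 to 5 reads in the first library, against 0 to 198 in the other. The direction in a class is thus partly set by the ranking and is given as a description. At the 6 bins chosen by T cell Myc, Pol2 had 47 to 78 reads without and 106 to 175 with 10058-F4, in libraries of 2377368 and 5130471 reads.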

How the data were processed

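ChIP-seq reads of LPS-treated B cells (Myc, IgG and Pol2) and of T cells at 4 h (Myc and IgG) were used, 12 libraries in all. The deposited files are other than counts or signal: they list aligned reads, 1 line each with positions, read length and strand. The tools named in the submitters' processing notes are Bowtie 0.12.7 and CASAVA 1.0, and the build is mm8. Whether positions start at 0 or 1 is not stated, so each may be off by 1 base. Which IgG belongs to which Myc library is not stated and was taken from the titles.

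Reads repeating the strand and 5′ end of another were dropped (5.29% in Myc replicate 1, at most 0.0808% elsewhere). Each read was moved toward the fragment centre by 0.5 times the library's strand offset (95 to 175 bp) and counted in 500-bp bins. Replicates differed by more than sampling noise in windows of about 1 Mb (chi-square over its degrees of freedom at least 12.9), so each was taken as its own library. Folds have exact binomial intervals. Differences of log2 folds have normal intervals from the read sums, and medians have order-statistic intervals. Tests used limma 3.58.1 in R 4.3.3 and scipy 1.17.1, and were tested on simulated data. Intervals cover counting error only, since reads are not independent molecules.

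The libraries, rankings and tests were chosen with earlier results of these data known. Named bins were the 6 highest in T cell Myc among 2000 strong Pol2 bins, the 6 highest in B4 Myc, the 5 highest in Myc with 10058-F4 and the 5 highest and 5 lowest limma statistics, at least 5 kb apart and outside the 0.01% of bins with the most IgG reads. The centre-over-flank ratio and the groups by T cell Myc were added after seeing the data. Alternatives covered controls, scaling, shift, duplicates, bin width, thinning, filters and left-out libraries. Untreated B cells and T cells at 14 h were not analysed here.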

Additional observations from a re-analysis of the deposited data

How the results depend on the processing

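The log2 fold with 10058-F4 minus that without it, summed over the 2000 highest bins, was -1.03 by Pol2 rank, -1.14 by T cell Myc, -0.77 by replicate 1 and -1.16 by replicate 2. Without one Myc replicate it ranged from -1.40 to -0.67 by Pol2 rank and from -1.46 to -0.82 by T cell Myc. The direction turned with the IgG library marked wt under the Myc libraries without 10058-F4, to 0.14 by Pol2 rank and 0.13 by replicate 1, and shrank to -0.22 by T cell Myc and -0.12 by replicate 2. With the other 10058-F4 IgG library it was -1.67 by Pol2 rank, -1.21 by replicate 1 and -1.53 by replicate 2. With both changed, an alternative chosen after seeing the data, it was -0.50, -0.46 by T cell Myc, -0.31 by replicate 1 and -0.49 by replicate 2. Without IgG it was -0.52 by Pol2 rank, -0.45 by replicate 1 and -0.64 by replicate 2. For the replicate 1 and replicate 2 rankings it was -0.71 and -1.05 after thinning, -0.96 and -1.55 without high-IgG bins, and -1.01 with 1-kb bins for replicate 2.

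The median difference per bin, -0.56 by replicate 1 rank and -0.89 by replicate 2 rank, was -0.82 and -1.26 with 0.1 RPM added, -0.41 and -0.69 with 1 RPM, -0.69 and -1.09 in 1-kb bins, -0.86 and -1.25 in the top 500, -0.29 and -0.43 in the top 5000, -0.41 and -0.70 without IgG, and -0.63 after thinning for replicate 2. Against replicate 1 it was -1.56 by Pol2 rank with 0.1 RPM and -1.46 in the top 500 by T cell Myc. The median against replicate 2 ranged from -0.68 to -0.35 by Pol2 rank (main -0.49) and from -0.72 in the top 500, with -0.69 at 0.1 RPM, to -0.30 without IgG by T cell Myc (main -0.44).

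At matched depth the bins higher in Myc with 10058-F4, 2 in the main draw, were 6, 1 and 0 in other draws, 1 with at least 5 reads, 8 with at least 12, 1 at an adjusted p of 0.01, 1 in 1-kb bins and 48 over the other IgG library, with 18 higher in IgG there and 0 in those 3 draws, with at least 5 reads and in 1-kb bins. In replicate 1 the 1642 became 326 with at least 5 reads, 924 with at least 12 and 535 at 0.01, and the 13 higher in IgG became 8 in 1-kb bins. In replicate 2 the 329 became 15, 158 and 36 under the same 3 settings and 107 in 1-kb bins. The causes were not tested.

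limma called 0 bins in either direction under 14 alternatives, leaving out each replicate among them. With a replicate block, which pairs Myc and IgG libraries by number, it called 15 lower and 0 higher (0.261% of 5740). The labels give no shared source for these numbers, and the deviations of same-numbered libraries had a correlation of 0.17 over bins. The log2 ratio of centre over flank with 10058-F4 to that of the replicates was -0.63 at Pol2 sites, from -0.73 to -0.54 without one Myc replicate and -0.92 at sites of the T cell Myc ranking, and negative in all 9 alternatives. In the bins named for their Myc with 10058-F4, that library held at most 18 reads, which limits what a single bin can show.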
